A study of Macaca mulatta with 13 samples.

Results

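The data are of 6 genes of T cell costimulation, followed in single leukocytes of the rhesus macaque (Macaca mulatta) colon: TNFRSF4, TNFRSF18, CD28, ICOS, CD40LG and TNFSF14. These 6 of the 34628 genes in the deposited matrix were chosen by name as receptors and ligands that pass a second signal to T cells, and all 6 were found. TNFRSF4 carries no symbol in the deposited gene list and was matched through its identifier, ENSMMUG00000059937. The other 5 carry their own symbols, as TNFRSF18 (ENSMMUG00000014205), CD28 (ENSMMUG00000057214), ICOS (ENSMMUG00000002648), CD40LG (ENSMMUG00000013773) and TNFSF14 (ENSMMUG00000051945). They were read in 13104 T cells, which are 63.7% of the 20567 cells kept by the authors after 1 of 2 libraries that share barcodes was left out.

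A T cell needs a signal through its antigen receptor together with a costimulatory signal to divide, survive and make cytokines. CD28 and ICOS are immunoglobulin-family receptors that bind CD80 or CD86 and ICOSLG on antigen-presenting cells. TNFRSF4 (OX40) and TNFRSF18 (GITR) belong to the TNF receptor family, appear on the T cell after activation and signal through TRAF adaptors to NF-kappa-B. CD40LG is the T cell's ligand for CD40 on B cells and myeloid cells, and TNFSF14 (LIGHT) is a ligand for TNFRSF14 (HVEM) and LTBR, the lymphotoxin beta receptor of stromal, epithelial and myeloid cells. The gut holds many antigen-experienced T cells of both the CD4 helper and the CD8 cytotoxic lineages, which use these molecules differently.

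The series concerns acute graft-versus-host disease after transplantation of blood-forming cells, in which the recipient's tissues are attacked by T cells from the donor. Live cells with CD45, which marks leukocytes, were sorted from colon samples, and droplet libraries were made with 2 versions of a 3' kit that tags each captured RNA molecule with a unique molecular identifier (UMI). The labels describe 13 libraries: 4 of host cells and 2 of donor cells from transplanted animals, 3 of host and donor cells combined (titled GVHD), and 4 of untransplanted healthy controls. Host and donor cells were parted by the MHC class I molecule MAMU-A001 in part of the transplanted animals, and sorted cells lacked the CD45 label marked IVas. Which library was made with which kit version was not stated. The labels used here give no age, conditioning, drug or time after transplantation, and no genetic alteration.

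The cell barcodes carry a library number, 1 to 13, whose labelled sample was not given in the sources used here. Libraries are called by this number; host, donor and healthy libraries were not compared, and no test across libraries was made. Libraries 1 to 7 and 8 to 13 draw on separate barcode lists (barcode sets 1 and 2). Libraries 4 and 6 share 5323 barcodes, where no other pair within a set shares more than 55, and all 39 kept barcodes of library 4 were also kept in library 6, so library 4 was left out. Among T cells, 19 barcode sequences recurred in a second library.

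A T cell was a kept barcode with at least 3 UMIs of CD3D, CD3E and CD3G together, the chains of the antigen receptor complex. The 11 libraries with at least 20 T cells held between 45 and 2314 of them, with a median of 3294.5 UMIs per T cell over all libraries. The T cells showed their defining genes, with CD3E at 386 and TRAC at 762 CPM (UMIs scaled by all UMIs of the same cells), and also plasma cell RNA, with MZB1 at 1069 CPM.

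Levels differed widely between libraries for every one of the 6 genes. TNFRSF4 ranged from 1.46 CPM in library 3 over a median of 48.2 to 319 CPM in library 2. Library 9 stood second at 144 CPM, and libraries 3, 5 and 6 were lowest at 1.46, 2.72 and 5.85 CPM. The other 6 libraries lay together between 36.7 and 65.3 CPM. The share of T cells with a TNFRSF4 UMI followed the same extremes, from 0.66% in library 3 to 31.3% in library 2.

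TNFRSF18 had nearly the same order. It was not detected in the 45 T cells of library 6, was at 3.79 CPM in library 3 and 6.09 in library 5, had a median of 30.5 and reached 88.8 in library 9 and 223 in library 2. Library 2 alone gave 59.5% of all TNFRSF4 UMIs and 59.7% of all TNFRSF18 UMIs in T cells. The pooled level of 99.4 CPM of TNFRSF4 was 49.4 without library 2, and that of TNFRSF18 moved from 69.4 to 34.3 CPM.

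ICOS and CD28, the immunoglobulin-family receptors, were spread more evenly. ICOS ranged from 48.8 CPM in library 10 over a median of 121 to 281 in library 1, and libraries 2, 6 and 9 also stood above 200 CPM. Its share of T cells with a UMI lay between 17.5% and 54.3%. CD28 ranged from 9.16 CPM in library 10 over a median of 60.1 to 186 in library 9. Library 13 at 12.9, library 5 at 22.4 and library 12 at 26.2 CPM lay next to library 10 at the low end.

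The ligands peaked in libraries other than library 2. CD40LG ranged from 6.87 CPM in library 10 over a median of 14.9 to 64.9 in library 11, and library 2, the highest for TNFRSF4 and TNFRSF18, was at 8.48. TNFSF14 ranged from 1.44 CPM in library 5 over a median of 14.7 to 121 in library 12. Library 13 came next at 21.0 CPM of TNFSF14, and library 12 gave 70.5% of its UMIs. Without library 12 the pooled level of TNFSF14 was 11.1 CPM in place of 30.8. The plot of T cell levels by library shows these separate peaks.

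**Figure D1:**
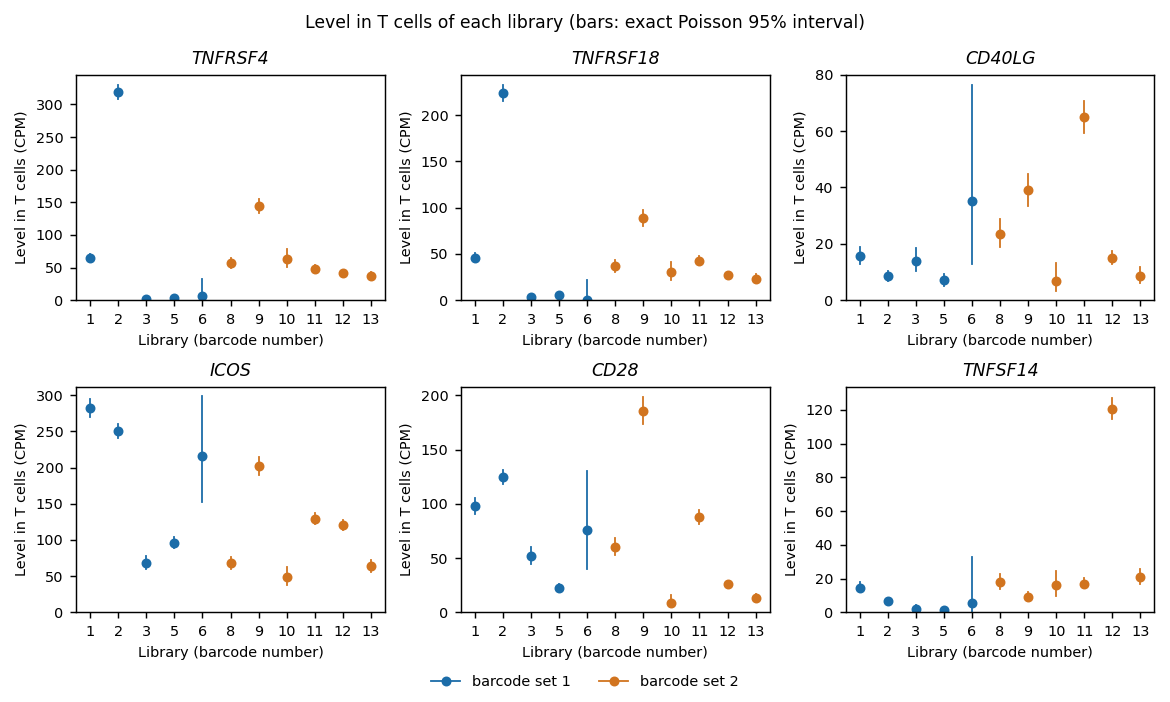
Level of each gene in the T cells of the 11 libraries with at least 20 T cells, in CPM, with the exact Poisson 95% interval, which covers counting error only. TNFRSF4 and TNFRSF18 peak in library 2 (319 and 223 CPM), CD40LG in library 11 (64.9 CPM) and TNFSF14 in library 12 (121 CPM).

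To compare helper and cytotoxic cells, T cells with a CD4 UMI and none of CD8A (CD4 kind, 2048 cells) were set against those with a CD8A UMI and none of CD4 (CD8A kind, 3867 cells). Within each of the 9 libraries that held 20 or more cells of each kind, summed UMIs gave a log2 ratio of CPM plus 5, CD4 kind over CD8A kind, which understates the ratio of low genes. The median ratio was positive for 5 of the genes and negative for TNFSF14. TNFRSF4, TNFRSF18, CD40LG and ICOS were higher in the CD4 kind in 9 of 9 libraries, a direction shared by 225 of the 7664 genes measured at a mean of at least 5 CPM (2.94%). TNFSF14 was lower in the CD4 kind in every library, as were 99 genes (1.29%). The median ratio was at least 1 for 5 of the 6, as for 82 genes (1.07%), and at most -1 for TNFSF14, as for 56 genes (0.731%). Scaling by edgeR's TMM factors, which moved the median of all genes from 0.04 to -0.03, gave 145 genes higher and 150 lower, so that 49.2% in place of 69.4% of these genes were higher, and the direction of the 5 genes held.

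TNFRSF18 had a median log2 ratio of 2.89, from 0.72 in library 1 to 4.24 in library 12, the fourth highest of the 7664 genes. In library 1 it was at 55.1 CPM in the CD4 kind and 31.4 in the CD8A kind, a ratio of 1.75 (95% interval 1.23 to 2.53, counting error only). In library 12 the levels were 220 and 6.87 CPM. The interval of the ratio lay above 1 in 8 of the 9 libraries, and library 3, with 5 UMIs against 0, was the other.

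TNFRSF4 had a median log2 ratio of 2.62, the fifth highest of the 7664 genes, and a range of 0.85 to 5.63. Its highest value came from library 12, with 420 CPM in the CD4 kind against 3.59 in the CD8A kind, a ratio of 117 (76.2 to 188). The lowest came from library 3, where the direction rests on 2 UMIs against 0 and gives no fold. Library 5 had 4 UMIs against 1, and the interval of the ratio lay above 1 in 7 of the 9 libraries. Library 2 differed from the others in its CD8A kind, which held TNFRSF4 at 134 CPM, against at most 27.9 CPM in the CD8A kind of the other 8 libraries. Its CD4 kind was at 591 CPM, a ratio of 4.41 (3.97 to 4.90).

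Both TNF receptors had larger ratios in barcode set 2 than in set 1. The median of TNFRSF4 was 1.33 over the 4 libraries of set 1 and 4.16 over the 5 of set 2, and the values of the sets, 0.85 to 2.10 and 2.62 to 5.63, did not overlap. For TNFRSF18 they were 1.501 (0.72 to 1.69) and 3.45 (2.89 to 4.24). Kit, animals and labelled group cannot be told apart between these sets.

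ICOS was higher in the CD4 kind by a narrower margin, with a median log2 ratio of 1.04, a range of 0.46 to 1.84 and rank 74. It was abundant in both kinds, at 305 CPM in the pooled CD4 kind and 129 in the CD8A kind. CD28 had a median of 1.22, rank 47, and was higher in the CD4 kind in 8 of 9 libraries. In library 3 the levels of CD28 were 60.4 CPM in the CD4 kind and 69.9 in the CD8A kind, a difference not detectable at this depth (ratio 0.864, 0.387 to 2.18). In libraries 12 and 13 CD28 was low in the CD8A kind, at 9.84 and 8.10 CPM, where the other 7 libraries compared had 19.4 to 150 CPM. Library 10, with too few cells of the CD4 kind to be compared, was lower still, at 7.41 CPM in its CD8A kind. By set, the medians were 0.79 and 1.298 for ICOS and 1.08 and 1.69 for CD28.

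CD40LG, the helper ligand, had a median log2 ratio of 2.16, from 0.16 in library 3 to 3.76 in library 12, and ranked 10 from the highest. Its pooled level was 52.9 CPM in the CD4 kind and 4.70 in the CD8A kind, or 470 against 76 UMIs. The CD8A kind never exceeded 17.6 CPM of CD40LG in any of the 9 libraries. The set medians were 1.204 and 2.66.

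TNFSF14 ran the other way, with a median log2 ratio of -1.25 and a range of -3.01 to -0.20, rank 41 from the lowest. Library 12 held TNFSF14 at 152 CPM in the CD8A kind and 14.5 in the CD4 kind and gave 975 of the 1198 UMIs in the CD8A kind of these libraries. The interval of the ratio lay below 1 in 4 libraries, which were 2, 8, 12 and 13. In library 3 it rests on 1 UMI in the CD8A kind against 0 in the CD4 kind. The set medians were -0.93 and -1.35, and leaving out each library in turn gave medians from -1.299 to -1.09.

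**Figure D2:**
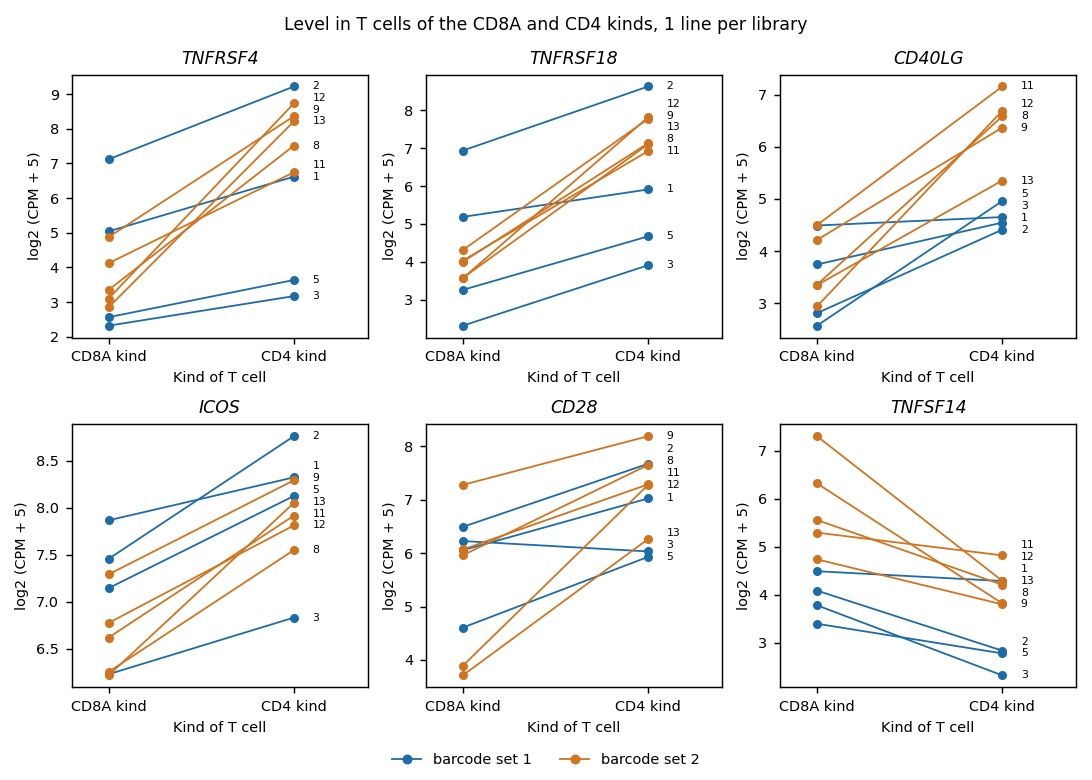
Level as log2 (CPM + 5) in the CD8A and CD4 kinds of T cell, 1 line for each of 9 libraries, library numbers at the right (spread apart where they would overlap) and colours for the barcode sets. Lines of TNFRSF4, TNFRSF18, CD40LG and ICOS go up towards the CD4 kind in 9 of 9 libraries, those of CD28 in 8 of 9, and those of TNFSF14 go down in every one.

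Most T cells, 6838 of 13091, had a UMI of neither CD4 nor CD8A and cannot be placed. TNFRSF4 was at 69.2 CPM in them, between the 34.9 CPM of the CD8A kind and the 267 CPM of the CD4 kind over all libraries with such cells. TNFRSF18, CD40LG and CD28 were placed between the kinds in the same way, at 44.8, 21.1 and 66.1 CPM, and so was TNFSF14 at 16.4. ICOS was at 121 CPM in these cells and 128 in the CD8A kind, with overlapping intervals. All these are pooled levels, to which the libraries add in unlike shares. By the median over libraries, CD28 was at 50.5 CPM in these cells, below 59.4 in the CD8A kind and 150 in the CD4 kind. TNFSF14 was at 8.21, below 9.11 in the CD4 kind and 23.8 in the CD8A kind. The medians of TNFRSF4, TNFRSF18 and CD40LG stayed between the kinds.

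How often single T cells carried several of the 6 RNAs was counted after each cell was thinned to 1500 UMIs, so that deep and shallow cells could be compared. At least 1 of the 6 was found in 62.5% of the CD4 kind and 31.4% of the CD8A kind, and at least 2 in 27.5% and 5.74%. No thinned T cell had all 6, and the highest number was 5. Free RNA and depth limit such shares, and an absent UMI does not show that a cell lacks the RNA.

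Pairs were compared with the number of cells expected if both RNAs were spread independently within each library and kind. TNFRSF4 and TNFRSF18 met in 447 thinned cells where 177 were expected, a ratio of 2.52, and this was the only 1 of the 15 pairs with a ratio of at least 1.5. Over all libraries and kinds together, 45.02% of the thinned cells with TNFRSF4 also had TNFRSF18, against 4.39% of the rest. These shares also hold differences between libraries and kinds, while the ratio is taken within them. Cells with a UMI of neither CD4 nor CD8A, 6838 of 13091, were taken as a kind of their own. They can mix both lineages, which the ratio does not part. The ratio was above 1 in 6 of the 6 libraries with at least 3 expected cells, from 1.98 to 5.43. Library 2, where both genes were commonest, had 265 cells with both where 134 were expected, and without it the pooled ratio was 4.15.

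The link of TNFRSF4 with TNFRSF18 was found in both kinds. In the CD4 kind 165 cells had both where 85.8 were expected, a ratio of 1.92, and in the CD8A kind 47 had both where 7.03 were expected, a ratio of 6.68. Its odds ratio of 7.87 was far above the median of 1.09 between TNFRSF4 and 7760 genes found in at least 100 thinned T cells, of which 10.2% reached 1.5. The 3 genes with a higher odds ratio than TNFRSF18 were TMSB4X, ACTB and RPS12, found in 12772, 12441 and 12967 cells, where few cells without the gene remain to compare.

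The other receptor pairs were found together somewhat more often than expected. The ratio was 1.37 for TNFRSF4 with ICOS, 1.34 for TNFRSF4 with CD28, 1.32 for TNFRSF18 with ICOS, 1.26 for ICOS with CD28 and 1.22 for TNFRSF18 with CD28. ICOS and CD28 met more often than expected in 9 of 9 libraries that could be compared, and TNFRSF4 and CD28 in 6 of 6. The odds ratios of the 5 pairs were 1.88, 1.62, 1.73, 1.54 and 1.39 in the order given above. Which pairs reach 1.5 therefore depends on the measure, and no finding is taken from the weaker pairs.

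CD40LG was found with ICOS at 1.44 times (odds ratio 1.79) and with CD28 at 1.32 times the expected number, and with TNFRSF18 at 1.03 times. Within the CD4 kind, 9 cells had CD40LG and TNFRSF18 where 19.1 were expected (0.47). Among cells with neither CD4 nor CD8A UMI the number was 29 where 17.6 were expected (1.65), and in the CD8A kind 0 where 0.80 were expected. TNFRSF4 and CD40LG met in 57 cells where 42.9 were expected (1.33, above 1 in 4 of 5 libraries), though in 19 where 21.3 were expected within the CD4 kind. With neither UMI they met in 34 cells where 18.6 were expected (1.83), and in the CD8A kind in 2 where 0.59 were expected. TNFSF14 was found less often than expected with TNFRSF4 (0.64), CD28 (0.70) and CD40LG (0.79) and at about the expected number with TNFRSF18 (1.01) and ICOS (1.11). The numbers behind the low values are small, with 13 cells for TNFRSF4 and 28 for CD28.

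**Figure D3:**
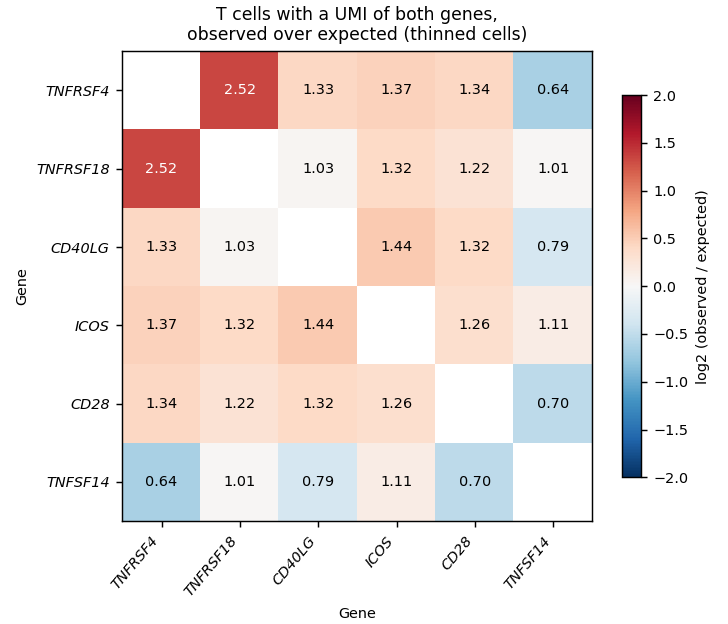
Number of thinned T cells with a UMI of both genes over the number expected within library and kind, for the 15 pairs, coloured on a log2 scale. TNFRSF4 with TNFRSF18 stands at 2.52, and the lowest value is 0.64 for TNFRSF4 with TNFSF14.

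Which T cells carried each RNA was described by 21 genes of T cell states, with odds ratios again taken within library and kind. The cells with neither CD4 nor CD8A UMI were again a kind of their own that can mix both lineages. Shares of cells given beside the odds ratios are over all libraries and kinds together, and so also hold differences between those. Odds ratios above 1 mean that the RNA was commoner in thinned cells with the state gene than in those without, and state genes found in under 100 cells are not described. FOXP3, the regulatory T cell factor, was among these with 21 cells. The share of all genes with an odds ratio of at least 1.5 was 10.2% for TNFRSF4, 10.7% for TNFRSF18, 8.69% for CD40LG, 2.84% for ICOS, 3.78% for CD28 and 8.17% for TNFSF14. The share at or below the inverse of 1.5 was 6.95%, 6.03%, 11.0%, 2.82%, 4.59% and 10.0% in the same order.

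TNFRSF4 had odds ratios of at least 1.5 with 6 of the state genes. Its odds ratio was 3.03 with IL2RA, the alpha chain of the IL-2 receptor, 2.91 with the chemokine gene CCL20, 2.88 with the checkpoint receptor CTLA4, 2.60 with the helper cytokine IL21, 2.23 with the factor GATA3 and 1.80 with the checkpoint receptor PDCD1. Of thinned cells with CTLA4, 19.9% had TNFRSF4, against 5.26% of those without, and the share was higher with CTLA4 in 7 of 7 libraries compared. Low values were 0.42 with GZMK, a granzyme gene, and 0.54 with KLRB1, each lower in every library compared (6 and 7). With CD69, an early activation and residency marker, TNFRSF4 was at 0.86, and higher in 3 of 8 libraries.

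TNFRSF18 shared these 6 high values. It had odds ratios of 3.07 with CTLA4, 2.82 with IL2RA, 2.70 with CCL20, 2.41 with IL21, 2.31 with GATA3 and 1.83 with PDCD1. CTLA4, IL2RA, CCL20 and GATA3 went with TNFRSF18 in every library compared, which were 8, 9, 8 and 8. The values below 1 were shared less, with GZMK at 0.84 and KLRB1 at 0.86, while GZMB was at 1.46 (5 of 9 libraries higher) and CD69 at 0.75 (3 of 9).

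ICOS was commoner with IL21 (2.38, 8 of 8 libraries), IL22 (2.34, 3 of 3), CTLA4 (2.15, 9 of 9), CD69 (1.73, 10 of 10), and IL2RA (1.53, 9 of 10). ICOS was found in 44.0% of thinned cells with IL21 and 21.6% of those without. CD28 had lower peaks, at 1.66 with CTLA4 (9 of 9) and IL21 (7 of 8), 1.60 with IL22 and 1.502 with LEF1, a factor of naive and memory cells. With GNLY, the gene of the cytotoxic protein granulysin, CD28 was at 0.60 and lower in 8 of 9 libraries.

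CD40LG showed another pattern. Its odds ratio was 2.55 with CD69 (9 of 9 libraries), 1.86 with LEF1 (6 of 6) and 1.73 with IL21 (7 of 8), but 0.71 with IL2RA, the gene at the head of the TNFRSF4 list. It was low with the cytotoxic genes GZMK (0.30, 0 of 8 libraries higher), GNLY (0.40) and GZMB (0.47), with 1 of 9 libraries higher for each of the last 2.

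TNFSF14 was commoner in cells with IL22 (2.44), GZMB (2.39, 7 of 7 libraries), CD69 (2.18), CCL20 (2.15) and IL2RA (1.60). GZMB-positive thinned cells had TNFSF14 in 7.98%, and GZMB-negative ones in 2.51%. The value with CCL20 was 1.32 without library 12, while that with GZMB was 2.18. TNFSF14 was rarer with LEF1 (0.25) and CCR7 (0.52), genes of naive and circulating memory cells, and with CTLA4 (0.59). None of the libraries compared went the other way for these 3. The cells with both genes were few, at 2 for LEF1, 41 for CCR7 and 24 for CTLA4.

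**Figure D4:**
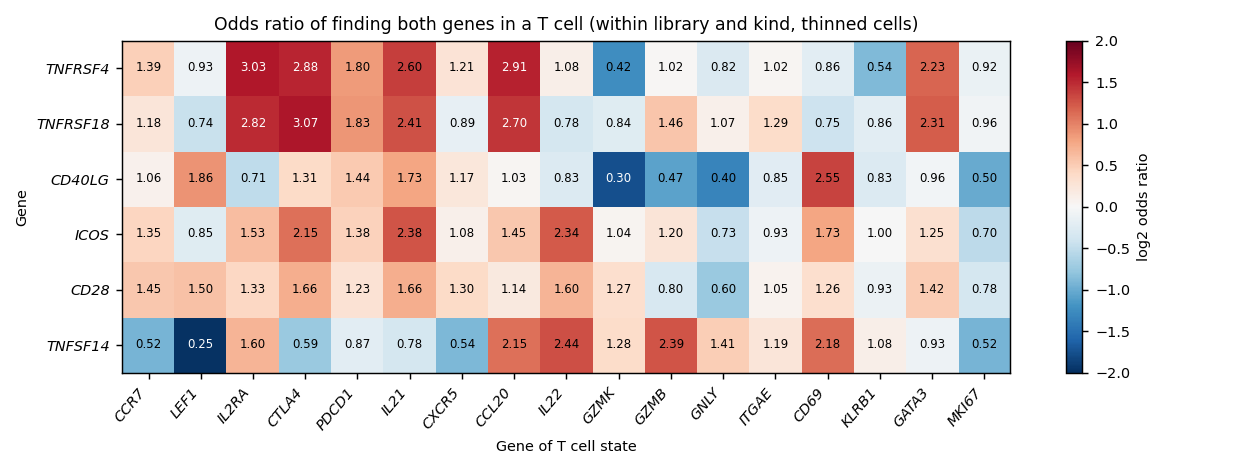
Odds ratio of finding each of the 6 genes (rows) with state genes found in at least 100 thinned T cells (columns), within library and kind, coloured on a log2 scale. TNFRSF4 and TNFRSF18 share high values with IL2RA, CTLA4, IL21 and CCL20. TNFSF14 has high values with GZMB and CD69 and low ones with LEF1 (2 cells with both) and CCR7 (41 cells with both).

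The genes were then read in the other sorted cells, gated by markers and by the absence of any CD3 UMI. TNFRSF4, CD40LG, ICOS and CD28 were found in larger shares of T cells than of any other gate. After thinning, ICOS was found in 22.4% of T cells and 0.58% of the 2399 B-gate cells, CD28 in 12.9% and 0.63%, TNFRSF4 in 7.58% and 0.13%, and CD40LG in 4.01% and 0.042%. Median depths of the unthinned cells were 3294.5 UMIs in T cells and 3241 in B-gate cells, and the unthinned shares were 37.9% and 1.08% for ICOS. The absence of CD3 UMIs by which the B gate was set also removes droplets with T cell RNA, so its shares can understate free RNA, whose part was not tested.

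TNFRSF18 and TNFSF14 were also found in cells gated as natural killer or innate lymphoid by KLRD1, NCR1, KLRF1, KIT and NKG7. In these 91 cells TNFSF14 was at 153 CPM (exact Poisson interval 113 to 201) and in 16.5% of thinned cells (9.53% to 25.7%), against 30.8 CPM and 4.37% in T cells. TNFRSF18 was likewise at 153 CPM (113 to 201), against 69.4 CPM in T cells, and in 9.89% of thinned cells (4.62% to 17.9%) against 7.46%. ICOS was at 51.9 CPM (30.2 to 83.1), in 7.69% of thinned cells and 18.7% unthinned, and TNFRSF4 at 21.4 CPM, from 7 UMIs in 3 cells. The gate held KLRD1 at 565 and NKG7 at 1457 CPM but also TRAC at 302 CPM, and only library 9 had at least 20 of its cells. In that library TNFSF14 was at 83.9 CPM in the gate (5 UMIs) and 9.27 in T cells. TNFRSF18 was at 67.2 CPM in the gate (4 UMIs, 18.3 to 172) and 88.8 in T cells, so that its direction turned. The part of T cells with unread CD3 in these values was not tested.

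**Figure D5:**
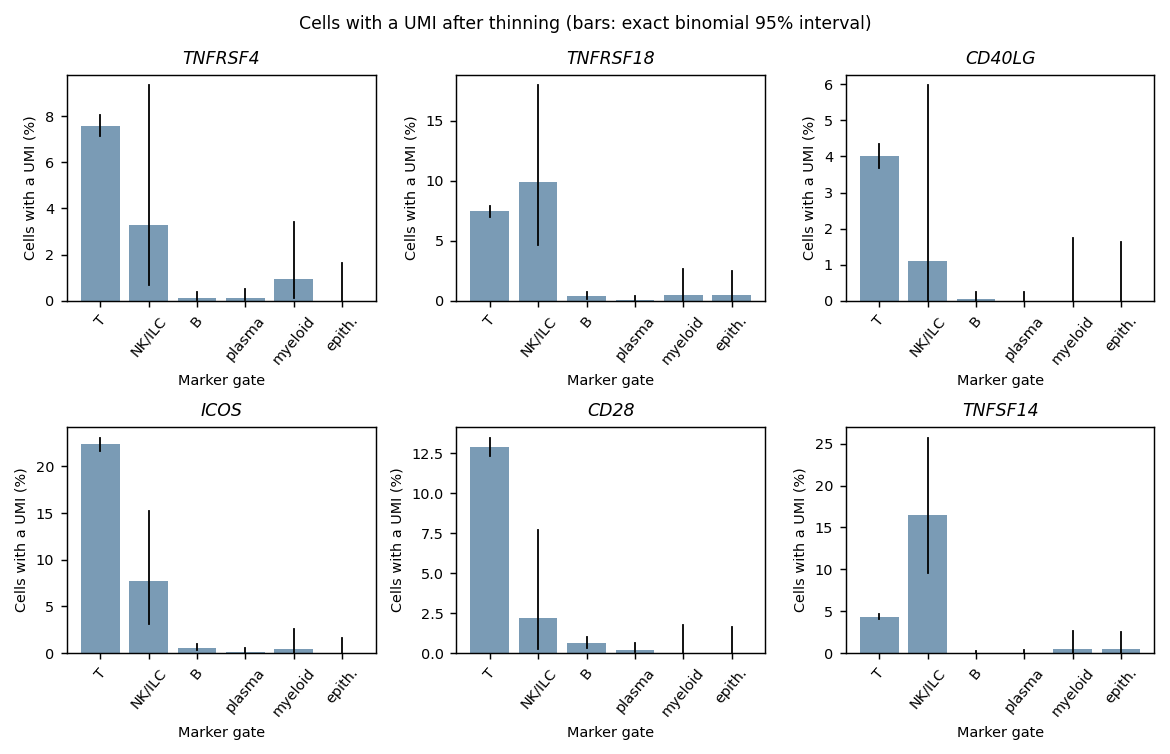
Share of cells with a UMI of each gene after thinning to 1500 UMIs, by marker gate, with the exact binomial 95% interval (counting error only); NK/ILC is the natural killer or innate lymphoid gate of 91 cells. ICOS, CD28, TNFRSF4 and CD40LG are highest in T cells, and TNFSF14 is highest in the NK/ILC gate at 16.5%.

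Binding partners of the 6 were looked for in the same cells. CD86, a ligand of CD28, was found in 21.1% of the 209 thinned myeloid-gate cells and 8.55% of B-gate cells, against 1.61% of T cells, and CD80, the other ligand, in 4.31%, 1.83% and 1.42%. ICOSLG, the ligand of ICOS, was found in 4.21% of B-gate and 2.39% of myeloid-gate cells and in 0.53% of T cells. CD40, the receptor of CD40LG, was in 1.17% of B-gate cells, at 7.61 CPM, and in 0.023% of T cells, at 0.74 CPM. In the myeloid gate CD40 had 1 UMI (0.50 CPM) and was found in 0.0% of thinned cells.

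The receptors of TNFSF14 were spread differently from each other. LTBR was found in 8.97% of the 223 epithelial-gate cells and 7.66% of myeloid-gate cells, but in 0.21% of T cells. TNFRSF14 was found in 9.87%, 8.61%, 6.46% and 8.84% of epithelial-gate, myeloid-gate, B-gate and T cells. The epithelial gate held EPCAM at 378 CPM but also MZB1 at 2277 CPM, against 2837 CPM of MZB1 in the plasma gate. Over its 3 libraries with at least 20 cells, LTBR ranged from 1.04 to 70.3 CPM and TNFRSF14 from 9.99 to 104 CPM. The part of plasma cells in this gate was not tested. The ligands of the TNF receptors were scarcely read at all. TNFSF4, the ligand of TNFRSF4, had 11 UMIs in all T cells, and TNFSF18, the ligand of TNFRSF18, had 0 UMIs in every gate. Its identifier stands under another name in the deposited list, so the count of 0 is of that identifier.

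Related genes gave the frame for the CD4 against CD8A comparison. Of 12 further receptors 7 were measured, and CTLA4 alone was higher in the CD4 kind in every library, with a median log2 ratio of 2.30 (0.04 to 4.02). The median of the 7 was 0.31, CD2 stood at 1.04 and was higher in 8 of 9 libraries, and none was lower in every library. CD27 was not matched. Of 10 ligands 5 were measured, with a median of 0.37, and TNFSF8 alone (0.86) was higher in every library. All 12 signalling genes were measured, with a median of -0.05. PIK3R1, a subunit of PI3-kinase, was lower in the CD4 kind in every library (-0.73), and none was higher in all. The median of the 6 costimulatory genes was 1.69, against 0.04 for all genes.

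Among 18 measured state genes, 5 were higher in the CD4 kind in every library, IL21 (3.22), CTLA4 (2.30), CCL20 (2.30), PDCD1 (1.54) and CXCR5 (0.96). GNLY (-2.38) and GZMB (-1.44) were lower in every library, and GZMK (-1.91) in 8 of 9. IL2RA was at 1.09 and higher in 8 of 9.

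The neighbours of the 6 genes on the chromosome, from RefSeq's annotation of the rhesus assembly T2T-MMU8v2.0, did not all share their ratio. TNFRSF4 and TNFRSF18 lie next to each other, and SDF4 on the other side of TNFRSF4 was at 0.61 and higher in the CD4 kind in 9 of 9 libraries. CTLA4 lies between CD28 and ICOS. CD70, next to TNFSF14, was at -0.53 with 4 of 9 libraries higher in the CD4 kind, and ARHGEF6, next to CD40LG, was at -0.19 with 3 of 9. Whether the authors' counting shared reads between adjacent genes was not given in the sources used here.

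Genes whose levels ran most like each of the 6 were found over 19 profiles, 1 for each library and kind with at least 20 cells, by Spearman correlation over 7664 genes. The profiles share libraries, and the values are descriptions. TNFRSF4 and TNFRSF18 were each other's nearest gene at 0.98, followed by PPP1CC (0.91) and MAP1LC3A (0.90) for TNFRSF4 and PHTF2 (0.90) and PPP1CC (0.89) for TNFRSF18. CD40LG was nearest to SHE (0.91), CCL20 (0.89) and CD4 (0.84), the last of which set the kinds. ICOS was nearest to AZIN1 (0.86), IL21 (0.85) and CTSL (0.85), and CD28 to RASGRP2 (0.88), IL6ST (0.87) and TOB1 (0.86). TNFSF14 was nearest to ITGA1 (0.95), which codes for an integrin chain that binds collagen, DAPK2 (0.92) and STK26 (0.91), and was at -0.15 with TNFRSF4 and -0.45 with ICOS.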

How the data were processed

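Single-cell RNA libraries of sorted colon leukocytes were described. The authors deposited 1 matrix of raw UMI counts per gene and barcode, written by Cell Ranger 3.1.0, per the file headers. The submitters' processing notes also name Seurat 3.1. Build and gene annotation were not given in the sources used here. Also deposited by the authors was a matrix of natural log values for 20606 cells they kept. It served only to find those cells. Kept cells have at least 1502 UMIs.

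Raw counts were summed over T cells, or over a kind of T cell, per barcode number and given as CPM of all their UMIs with exact Poisson intervals, and shares of cells with exact Clopper-Pearson binomial intervals, both at 95% and covering counting error only. As a floor, a count of 0 was taken to allow up to 3 counts, a set value that lies below the upper limit of the exact interval. Log2 ratios used a pseudocount of 5 CPM and were taken within a library over genes with a mean of at least 5 CPM in T cells. Cells were thinned to 1500 UMIs (seed 11) for shares and co-detection, with Mantel-Haenszel odds ratios over library and kind. No doublet caller was run. Instead, T cells with a UMI of another lineage were left out as an alternative. Ratios and co-detection were tested on simulated data. Tools were Python 3.11.15 with numpy 2.4.6, scipy 1.17.1, pandas 2.3.3 and matplotlib 3.10.9, and edgeR 4.0.16 in R 4.3.3, used only for TMM factors. Symbols missing from the deposited list were added from a gene name table for 695 identifiers.

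Other gates needed no CD3 UMI and at least 3 UMIs of the epithelial, B or natural killer and innate lymphoid markers, or 5 of the plasma or myeloid ones. Named genes were the 6 genes, the listed receptors, ligands, signalling and state genes, the 3 genes nearest to each of the 6 and their neighbours on the chromosome. For related genes values are given at a median log2 ratio of at least 1 in size or a share in a gate at least 3 times that in T cells, and otherwise where a count turns on the gene, such genes being chosen after their values were seen. The 6 genes and all lists were chosen with earlier results of these data known, which already included differences between T cell clusters, so agreement with those is no independent support. The planned edgeR comparison of the labelled groups needed a map from barcode numbers to samples and was not made. Groups by the order of the labels were not used. Some listed genes are not reported here.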

Additional observations from a re-analysis of the deposited data

Results flagged for a closer look

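Signal of all 6 genes was found in barcodes outside the set the authors kept. Of these, 5919 passed the T cell gate of at least 3 CD3 UMIs, with a median of 1718 UMIs, against 3294.5 in kept T cells. In them ICOS was at 206 CPM and CD28 at 123 CPM, against 157 and 75.4 CPM in kept T cells, and CD40LG was at 35.6 CPM against 21.2. TNFRSF4 was at 26.6 CPM against 99.4, TNFRSF18 at 25.7 against 69.4 and TNFSF14 at 17.0 against 30.8. Each value was above the floor of 0.295 CPM, which stands for 3 counts in these barcodes. The kept levels lean on single libraries: TNFSF14 was at 11.1 CPM without library 12, below the 17.0, and TNFRSF4 and TNFRSF18 were at 49.4 and 34.3 CPM without library 2. The values of the barcodes outside the kept set were pooled and not split by library, so these comparisons are of unlike sets of libraries. The lower depth of these barcodes moves with the difference from kept T cells, and its part was not tested.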

How the results depend on the processing

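The median log2 ratio of the CD4 to the CD8A kind kept its sign for all 6 genes in 138 alternatives over 23 settings, and 137 stayed within the spread between libraries. The exception was TNFRSF18 over barcode set 1 alone, at 1.501. Ranges were 1.33 to 4.16 for TNFRSF4, 1.501 to 3.47 for TNFRSF18, 1.15 to 3.01 for CD40LG, 0.79 to 1.298 for ICOS, 1.06 to 1.69 for CD28 and -1.57 to -0.53 for TNFSF14. The setting of at least 10 cells of both kinds, which takes in library 10, was chosen after seeing the data. The number of pairs found together at 1.5 times the expected number or more was 1, ranged from 1 to 2 with each library left out (2 without library 9) and was 6 with strata by library alone, which does not hold the kind fixed. The log2 co-detection ratio of TNFRSF18 with CD40LG changed sign to -0.14 without cells of other-lineage UMIs and ranged from -0.070 to 0.19 over libraries left out. That of TNFRSF18 with TNFSF14 changed sign to -0.011 at full depth and -0.37 with strata by library alone, and ranged from -0.15 to 0.22. The cause was not tested. Genes higher in the CD4 kind in every library (225) numbered 448 with kinds by 2 UMIs, 130 thinned, 737 and 859 in barcode sets 1 and 2 alone, 145 with TMM factors and 350 without library 1. Genes lower in every library (99) numbered 149 with kinds by 2 UMIs, 54 with CD8B, 151 with at least 50 cells, 156 without other lineages, 549 and 343 in the sets, 150 with TMM factors, and 151 and 152 without libraries 3 and 5. Fewer libraries compared raise such counts by construction. No paired analysis was possible because the barcode numbers carry no sample or replicate label by which labelled groups could be paired (the CD4 to CD8A ratio is itself taken within a library), and the edgeR and DESeq2 comparisons of labelled groups were not run for the same reason. Depth limits TNFRSF4 and TNFSF14 in library 3, with at most 2 UMIs per kind.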

Other observations

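The gene with the highest odds ratio with TNFRSF18, out of 7758 genes, was IL1RL1, the receptor of the cytokine IL-33, at 16.0. It was named after this value was seen. IL1RL1 was found in 113 thinned T cells over all libraries and kinds together. Of these, 71 (62.8%) also had TNFRSF18, against 6.99% of T cells without IL1RL1. TNFRSF4 was found in 60 of the 113 (53.1%), with an odds ratio of 6.62. In contrast CD40LG was found in 2 of the 113 and TNFSF14 in 0. Of the 113 cells, 41 came from library 2 and 29 from library 9, and 40 were of the CD4 kind, 16 of the CD8A kind and 47 of neither. In library 9, 24 of the 29 had TNFRSF4 and in library 2, 18 of the 41. These are cells of few libraries, and no test was made.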
